A study of Glycine max with 10 samples.

Results

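The shoot apical meristem (SAM) of soybean was compared between late and early stages of a short-day (SD) treatment that turns it from a leaf-producing into a flower-producing meristem. The late side held the 4 arrays at 4 and 6 SD and the early side the 4 arrays at 1 and 2 SD, so 8 of the 10 arrays of the series entered, with 2 biological replicates at each time point. All soybean probe sets were compared, 37593 in number, and a member of the comparison was a probe set whose 4 late arrays all lay above, or all lay below, the 4 early arrays. Of these probe sets 1170 were higher and 1452 were lower in all 4 late arrays, 2622 in all. Plants of both sides were cultivar Bragg, raised for 10 days in a glasshouse and then kept in a growth chamber at 24°C with 10 h of light, and microdissected apices gave 3 μg of total RNA for each Affymetrix Soybean GeneChip. Late and early plants therefore shared the chamber and the glasshouse period, and differed in the number of short days and, by the same number of days, in age. These cannot be told apart, since no array of plants kept in long days in the chamber was analysed here. The 2 remaining arrays, at 0 SD, were of 10-day-old plants taken from the glasshouse and are given only as a description. By the study's methods the tissue at 1, 2 and 4 SD was the dome-shaped SAM, whereas at 6 SD the new inflorescence meristem and the adjoining floral meristem were collected, so the late side also joined 2 kinds of tissue.

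In short days, leaves of soybean and other short-day plants send a mobile signal to the shoot apex, where floral meristem identity genes are switched on. In Arabidopsis these include the MADS-box transcription factors APETALA1, CAULIFLOWER and FRUITFULL, which give a meristem its floral or inflorescence identity, and the SEPALLATA factors, which act with other MADS-box proteins in forming floral organs. Short Vegetative Phase (SVP), another MADS-box factor, represses flowering there, and KNOX homeobox proteins such as SHOOT MERISTEMLESS keep the cells of the dome undifferentiated. Abscisic acid, auxin, cytokinin, gibberellin and sugar signals are all known to act in the shoot apex.

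The largest late-early differences were those of floral MADS-box genes, which were higher late, and an auxin-induced gene, AUX22, was among the largest of the lower ones. The late arrays lay above all early arrays for 1170 probe sets (3.11% of those compared) and below them for 1452 (3.86%), with a median log2 difference of 0.46 for the first set and −0.34 for the second. Over all probe sets the median difference was −0.02. Most separations were small. The difference was under 0.5 on the log2 scale for 645 of the higher and 1075 of the lower probe sets, and over 1 for 152 and 79 of them. The space between the nearest late and early arrays was over 0.5 for 44 higher and 32 lower probe sets, and over 1 for 11 and 8.

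**Figure D1:**
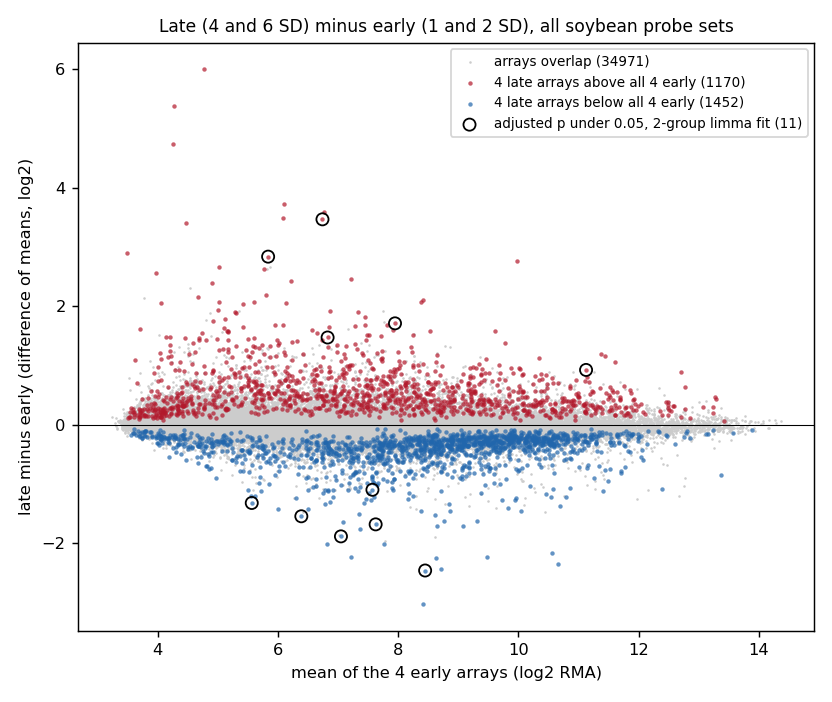
Difference of the late and early means (log2, vertical axis) against the mean of the 4 early arrays (log2 RMA, horizontal axis) for the 37593 soybean probe sets. Red points are the 1170 probe sets with all 4 late arrays above all 4 early arrays, blue points the 1452 with all late arrays below, and open circles the 11 past the limma test, which lie between −2.47 and 3.47.

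When the 2 sides were tested with limma (2 groups of 4 arrays, Benjamini-Hochberg adjustment over all 37593 probe sets, adjusted p under 0.05), 5 probe sets rose (0.0133%) and 6 fell (0.016%) in the late arrays, and all 11 were among the non-overlapping ones. Unadjusted p was under 0.05 for 1725 higher and 1804 lower probe sets. This test takes the distance between 4 and 6 SD, and that between 1 and 2 SD, as part of the spread. A second limma fit with a mean for each time point, which leaves these distances out of the spread, called 226 probe sets higher (0.601%) and 105 lower (0.279%), of which 173 and 93 did not overlap. It included the 11 of the first fit. Below, rose and fell are used for the 11, and an adjusted p of the second fit is given as one with time-point means.

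Arrays of 1 time point correlated at 0.976 or more, and 6 SD replicate 2 stood apart. Its interquartile range was 3.60 log2 units and its median 7.31, against interquartile ranges of 3.94 to 4.02 for the other 7 chamber arrays. Its correlation with the other late arrays averaged 0.970 and that with the early arrays 0.965. The 4 SD arrays correlated more with the early arrays (0.991 and 0.991) than with the other late arrays (0.981 and 0.986). Signs of RNA quality did not separate the sides: the 3′ probe set of actin exceeded the 5′ one by 0.89 to 1.44 in late arrays and by 1.08 to 1.64 in early arrays (log2). Cell type markers were summed as linear levels. The sum of 5 floral organ probe sets was 523 to 8600 in late and 98 to 122 in early arrays. That of 4 KNOX meristem probe sets was 4356 to 7835 in late and 3142 to 4011 in early arrays. The study had selected all 5 and all 4 on these arrays, so these 2 sums are not independent evidence. The sum of 6 leaf probe sets was 33630 to 46585 in late and 32321 to 41059 in early arrays. That of 8 root and nodule probe sets was 1623 to 3565 in late and 2955 to 4706 in early arrays. In these bulk samples more cells of a type and more RNA per cell cannot be told apart, and the part of the 6 SD tissue in the differences was not tested.

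APETALA1 had the largest difference of all. It had levels of 8.33 and 10.17 at 4 SD and 11.95 and 12.60 at 6 SD, against 4.80 and 4.50 at 1 SD and 4.88 and 4.88 at 2 SD (log2 RMA). The late arrays were spread over more than 4 log2 units, and none came near the early ones. The late-early difference was 6.00 ± 0.78 (standard error of the 2-group fit), a 63.9-fold higher level. Its early levels lay below the lower quartile of every early array (5.15 to 5.19), where a fold is uncertain. The same holds for the M3-related, AGL9, AP1A and SEPALLATA1 probe sets given below. With this spread inside the late side the adjusted p was 0.054, whereas with time-point means it was 0.0029. Without 4 SD replicate 1, the lowest late array, the difference of APETALA1 was 6.81 with an adjusted p of 0.0027, and without 6 SD replicate 2 it was 5.39 with an adjusted p of 0.036. Without any 1 of the other 6 arrays the adjusted p was 0.15 to 0.31 (0.31 without 1 SD replicate 1), with differences of 5.60 to 6.20, and with the replicate number as a block it was 0.10.

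A pair of other MADS-box probe sets came next. The one annotated as related to MADS box protein M3 had 7.29 and 9.44 at 4 SD and 11.24 and 10.66 at 6 SD, against 4.13, 4.10, 4.32 and 4.56 in the early arrays. The AGL9 probe set, AGL9 being the Arabidopsis gene also called SEPALLATA3, had 6.03 and 8.71 at 4 SD and 10.94 and 10.27 at 6 SD, against 3.98, 3.98, 4.42 and 4.61 in the early arrays. In both, 4 SD replicate 1 was the lowest late array and still lay above every early array. Their differences were 5.38 ± 0.71 (adjusted p = 0.059, adjusted p = 0.0054 with time-point means) and 4.74 ± 0.89 (adjusted p = 0.13, adjusted p = 0.015 with time-point means).

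FRUITFULL and a MADS-box probe set that the study's annotation matched to the Arabidopsis locus AT1G26310, CAULIFLOWER, rose. FRUITFULL had 9.43 and 10.11 at 4 SD and 10.53 and 10.75 at 6 SD, against 6.19 and 6.20 at 1 SD and 6.97 and 7.59 at 2 SD. The second had 8.24, 8.58, 9.11 and 8.76 in the late arrays, against 5.49, 5.49, 6.05 and 6.31 in the early arrays. Both were already high at 4 SD, and in both the 2 SD arrays were the highest of the early side. FRUITFULL rose by 3.47 ± 0.37 (11.1-fold, adjusted p = 0.029) and the other by 2.84 ± 0.23 (7.14-fold, adjusted p = 0.010). These were also the 2 probe sets called higher when 4 SD alone was set against the early time points (0.00532% of all).

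AP1A had 6.47 and 7.41 at 4 SD and 8.80 and 8.75 at 6 SD, against 4.30 to 4.70 in the early arrays, a difference of 3.40 ± 0.47 (adjusted p = 0.068, adjusted p = 0.0023 with time-point means). A SEPALLATA1 probe set followed later. It had 4.97 and 5.73 at 4 SD and 8.24 and 8.33 at 6 SD, against 4.47 to 4.80 early, and the step between 4 and 6 SD passed limma (adjusted p = 0.019). It was above the array median at 6 SD alone, so a filter on dim probe sets, given below, left it out. A second probe set with the symbol SEP1 differed by 2.15 as well but lay outside the non-overlapping set, its sides overlapping by 0.005.

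SVP went the other way. It had 7.13 and 7.0 at 4 SD and 5.85 and 5.55 at 6 SD, against 7.65, 7.79, 7.75 and 7.22 in the early arrays, a difference of −1.22 ± 0.35 (adjusted p = 0.31, adjusted p = 0.018 with time-point means). The nearest late and early arrays were 0.09 apart. Among the 14 MADS-box probe sets found, 7 were higher and 1 was lower in all late arrays, beside 3.11% and 3.86% of all probe sets. Their median difference was 2.15, against −0.02 over all probe sets. The 8 were among the 9 that the study had selected on these arrays, so that their count is not independent evidence, and none of the 5 found by symbol alone (NMH7, AG1 and MADS28) was separated.

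**Figure D2:**
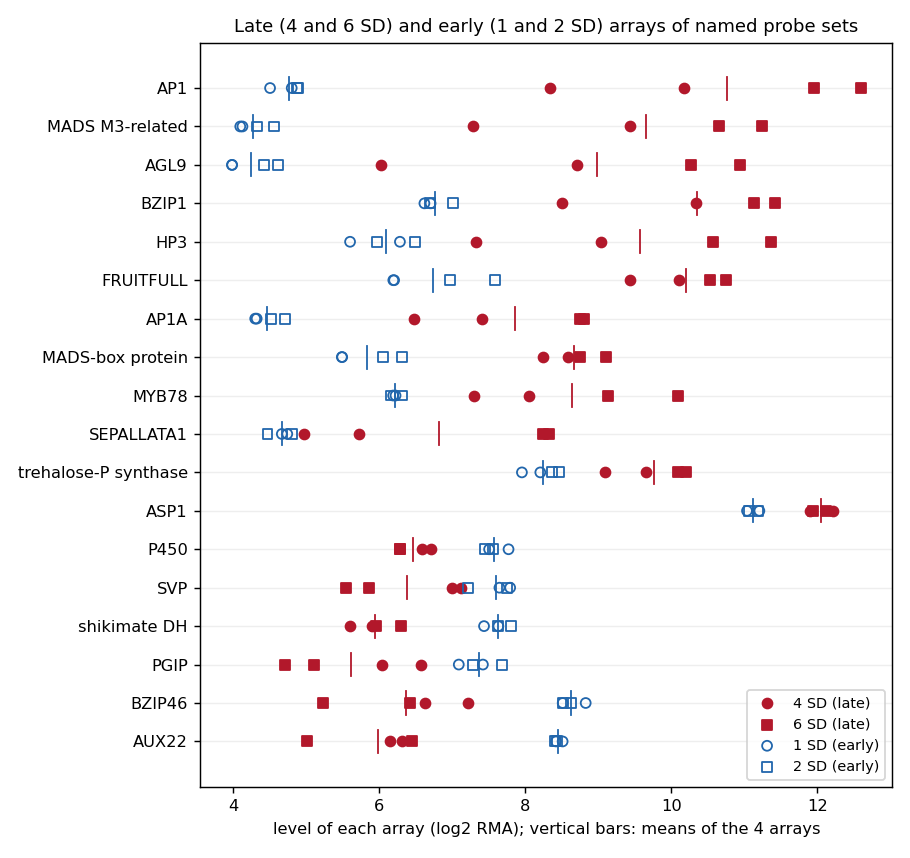
Level of each chamber array (log2 RMA, horizontal axis) for 18 named probe sets, with late arrays filled (circles 4 SD, squares 6 SD), early arrays open (circles 1 SD, squares 2 SD) and bars at the means of the 4 arrays. The sides are apart in every row, and 4 SD lies between the early arrays and 6 SD for most of the upper rows, as for APETALA1 with 8.33 and 10.17 at 4 SD.

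Homeobox genes were higher late or overlapped. Of 13 probe sets 5 were higher in all late arrays and none was lower (6 passed the time-point fit), beside 3.11% and 3.86% of all probe sets. The study had selected 8 of the 13 on these arrays, and these held 4 of the 5 and all 6, so the counts are not independent evidence. Among the 5 found by symbol alone 1 was higher and none passed the time-point fit (median 0.09). One SHOOT MERISTEMLESS probe set (symbol H1) had 10.59, 10.58, 11.25 and 11.14 in the late arrays, against 10.01, 9.83, 10.24 and 10.17 in the early arrays, a difference of 0.83 ± 0.18 (adjusted p = 0.17, adjusted p = 0.017 with time-point means). Its late arrays were all higher, by 0.34 at the nearest. The other SHOOT MERISTEMLESS probe set differed by 0.73 and that of KNAT2 by 1.17, but each overlapped, by 0.02 and 0.005. The homeobox-leucine zipper probe sets annotated HB-13 and HAT5 were higher by 1.09 ± 0.24 and 1.02 ± 0.30.

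Among other transcription factors, the MYB, Dof and bHLH probe sets that were higher were mainly those selected by the study, and no NAC probe set was separated. Of 106 MYB probe sets 13 were higher and 3 lower. The 8 that the study selected were all higher, and of the 98 found by symbol 5 were higher and 3 lower, beside 3.11% and 3.86% of all probe sets. The study chose its 8 on these arrays, so their direction is not independent evidence. A MYB78-annotated probe set had 7.30 and 8.06 at 4 SD and 10.09 and 9.13 at 6 SD, against 6.15 to 6.32 early, with a difference of 2.42 ± 0.50 (adjusted p = 0.012 with time-point means). MYB57 was higher with both of its named probe sets, by 1.92 ± 0.47 and 1.58 ± 0.38, the second being outside the study's selection.

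Of 4 Dof zinc finger probe sets 3 were higher, beside 3.11% of all probe sets. The study had selected these 3 on these arrays, and 1 of them passed the time-point fit. The largest difference was 1.26 ± 0.26 (adjusted p = 0.013 with time-point means). Of 5 bHLH probe sets, all selected by the study, 3 were higher and 1 lower, beside 3.11% and 3.86% of all probe sets. SPATULA, which in Arabidopsis acts in carpel margins, had 7.22, 8.11, 8.81 and 8.51 late, against 6.95, 6.16, 6.34 and 6.82 early. An unnamed bHLH factor had 4.81, 4.79, 4.02 and 4.07 late, against 5.52 to 5.76 early and 6.93 and 6.76 at 0 SD. Its level was highest at 0 SD and lowest at 6 SD. None of 31 NAC probe sets was separated, against 6.97% of all probe sets, and their differences ran from −0.92 (NAC19) to 1.17 (NAC12).

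All 103 WRKY probe sets were found by symbol. Of these 2 were higher and 7 lower (6.97% of all probe sets were separated in either direction), and none passed either fit. The largest difference was that of WRKY56, with 7.99, 6.29, 8.08 and 7.85 late, against 8.49, 8.75, 8.19 and 8.17 early, a difference of −0.85 ± 0.37. At 0 SD it had 6.29 and 6.20, so that its late arrays lay between those of 0 SD and the early side, 4 SD replicate 2 next to 0 SD.

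Of 13 probe sets of abscisic acid (ABA) synthesis and response 6 were higher, 1 was lower and 6 overlapped, with none past the 2-group fit. The 7 separated were all within the 8 selected by the study, and none of the 5 found by symbol alone was separated (median −0.10), beside 3.11% higher and 3.86% lower of all probe sets. BZIP1, annotated as an ABA-responsive element-binding protein, had 8.50 and 10.34 at 4 SD and 11.42 and 11.14 at 6 SD, against 6.70, 6.62, 7.01 and 6.69 early. The late arrays were at least 1.48 above the early ones. The difference was 3.59 ± 0.54 (adjusted p = 0.094, adjusted p = 0.012 with time-point means).

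A probe set of 9-cis-epoxycarotenoid dioxygenase, the enzyme of the rate-limiting step of ABA synthesis, had 5.67 and 5.74 at 4 SD and 7.78 and 7.27 at 6 SD, against 5.22 to 5.34 early. Here 4 SD was just above the early side and the step between 4 and 6 SD passed limma (adjusted p = 0.021). This probe set was above the array median in 6 SD replicate 1 alone, so a filter on dim probe sets, given below, left it out. Another probe set with this annotation had 8.15, 8.77, 10.47 and 10.02 late, against 8.49, 8.23, 8.15 and 8.58 early. It overlapped by 0.43, and its step between 4 and 6 SD did not pass (adjusted p = 0.058). A protein phosphatase 2C, of a class known to restrain ABA signalling, had 8.60, 9.23, 9.63 and 9.15 late, against 7.98, 7.97, 8.24 and 8.23 early. BZIP71, also annotated as an ABA-responsive element-binding protein, was the lower one, with 9.16, 9.22, 8.38 and 7.99 late, against 9.70, 9.46, 9.69 and 9.95 early. The separated probe sets of these 2 ABA-responsive element-binding factors thus lay in opposite directions. A second probe set with the symbol BZIP71 differed by −0.82 and overlapped by 0.12.

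Over all 94 bZIP probe sets 8 were higher and 4 lower, beside 3.11% and 3.86% of all probe sets. The 6 that the study selected on these arrays gave 3 higher and 3 lower, and the 88 found by symbol 5 higher and 1 lower. BZIP46 had 7.21 and 6.62 at 4 SD and 5.22 and 6.43 at 6 SD, against 8.83, 8.51, 8.51 and 8.63 early, a difference of −2.25 ± 0.35 (adjusted p = 0.099, adjusted p = 0.017 with time-point means). Its early arrays and those of 0 SD (8.80 and 8.49) were alike, and every late array was lower by at least 1.30.

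Auxin genes differed in both directions. AUX22, a soybean gene of the Aux/IAA family of auxin response repressors, fell. It had 6.32 and 6.15 at 4 SD and 5.01 and 6.45 at 6 SD, against 8.51 and 8.42 at 1 SD and 8.44 and 8.41 at 2 SD. The 4 early arrays were close together and the late arrays at least 1.96 below them. The difference was −2.47 ± 0.28 on the log2 scale (5.52-fold lower, adjusted p = 0.033), and at 0 SD the levels were 7.96 and 7.82.

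Of the 18 auxin probe sets 6 were higher, and 1 was lower besides AUX22, beside 3.11% higher and 3.86% lower of all probe sets. The 10 that the study selected on these arrays held 4 of the higher, and the 8 found by symbol held 2 of the higher and AUX22. IAA4, another Aux/IAA gene, had 6.52 and 6.56 at 4 SD and 8.20 and 8.04 at 6 SD, against 5.98 to 6.23 early (difference 1.23 ± 0.38, adjusted p = 0.0054 with time-point means). IAA-amido synthase, which conjugates auxin to amino acids, was higher by 0.98 ± 0.28, an AUX/IAA family probe set by 0.83 ± 0.19, and IAA16 by 0.82 ± 0.22. The lower one, an auxin-responsive protein, had 7.20, 7.04, 6.11 and 5.60 late, against 7.31 to 7.6 early. The auxin conjugate hydrolase ILL6 overlapped, with a difference of −0.04.

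Cytokinin probe sets numbered 6, of which 2 were higher, beside 3.11% of all probe sets. Both were among the 5 that the study selected on these arrays. HP3, a phosphorelay mediator that in Arabidopsis carries the cytokinin signal from receptors to response regulators, had 7.32 and 9.04 at 4 SD and 10.57 and 11.37 at 6 SD, against 5.60, 6.28, 5.97 and 6.50 early (difference 3.49 ± 0.74, adjusted p = 0.015 with time-point means). CKX3, a cytokinin oxidase symbol, had 6.15, 6.64, 7.89 and 7.58 late, against 5.44 to 5.8 early. A second oxidase, CKX5, differed by 1.37 and overlapped by 0.15, and the receptor AHK4 by −0.54 and overlapped by 0.04.

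For gibberellin, 3 of 32 probe sets were higher and 2 lower, beside 3.11% and 3.86% of all probe sets. GASA3, of a family of small gibberellin-regulated proteins, had 10.28, 11.15, 11.64 and 11.63 late, against 9.51, 9.58, 9.51 and 9.82 early (1.57 ± 0.28, adjusted p = 0.018 with time-point means). GA20OX3, of a family of oxidases of gibberellin synthesis, had 5.76, 6.42, 5.92 and 7.34 late, against 4.77, 5.30, 5.37 and 4.86 early (1.28 ± 0.32, adjusted p = 0.15 with time-point means). GASA5 was lower, with 6.63, 6.83, 5.8 and 6.42 late, against 7.23, 7.69, 6.87 and 7.19 early. None of these 3 passed the 2-group fit.

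Brassinosteroid probe sets were small in their differences: 3 of 6 were higher, led by a BES1/BZR1 factor of brassinosteroid signalling at 0.75 ± 0.19. Of 32 jasmonate and lipoxygenase probe sets 4 were higher and 1 lower, and the 28 found by symbol held 2 of the higher and the lower one. Over all probe sets 3.11% were higher and 3.86% lower. A lipase similar to DEFECTIVE IN ANTHER DEHISCENCE1, an Arabidopsis enzyme that frees the precursor of jasmonic acid, rose. This probe set had 7.85 and 8.21 at 4 SD and 8.63 and 8.49 at 6 SD, against 6.56, 6.86, 7.04 and 6.84 early, with a rise of 1.47 ± 0.18 (2.77-fold, adjusted p = 0.049). With 1 array left out in turn it passed in 2 of 8 fits, and adjusted p reached 0.22. Its levels at 0 SD, 5.85 and 5.46, were lower still. A second probe set with the same annotation was higher by 1.51 ± 0.27.

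Of sugar-related genes, trehalose-6-phosphate synthase, which makes the sugar signal trehalose 6-phosphate, had 9.09 and 9.65 at 4 SD and 10.20 and 10.09 at 6 SD, against 8.21, 7.95, 8.37 and 8.47 early. The difference was 1.51 ± 0.24 (adjusted p = 0.10, adjusted p = 0.012 with time-point means). A trehalose-6-phosphate phosphatase differed by 2.65 but the sides overlapped by 0.006. Among 23 starch and sugar probe sets 4 were higher and none lower, beside 3.11% and 3.86% of all probe sets. The 4 that the study selected on these arrays held 3 of the higher ones, and the 19 found by symbol held 1. The highest was MIPS4, an inositol-3-phosphate synthase, with 11.94, 12.36, 13.18 and 12.77 late, against 11.65, 11.30, 11.33 and 11.22 early, and 2 probe sets with the symbol MIPS were higher by 1.15 and 0.75. Cross-hybridization between these closely related probe sets was not tested. The beta-amylase BMY2, which breaks down starch, differed by −0.99 and overlapped by 0.05.

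The separated protein kinase and calcium-related probe sets were all among those that the study selected on these arrays. Among 24 calcium-related probe sets 4 were higher and 1 was lower, all within the 6 selected, beside 3.11% and 3.86% of all probe sets. None of the 18 calcium-related (median −0.16) or the 16 kinase probe sets found by symbol alone was separated. Of 30 receptor-like and other protein kinases 7 were higher and none lower, and all 7 were among the 14 selected by the study. They included a serine/threonine protein kinase with 7.28, 7.99, 8.95 and 9.12 late, against 6.71, 6.85, 7.10 and 7.26 early, and leucine-rich repeat transmembrane kinases higher by 0.93, 0.65 and 0.62. Another leucine-rich repeat kinase overlapped with a difference of 0.21, and one more differed by 1.24 and overlapped by 0.05. A calmodulin-binding protein had 7.11 and 7.97 at 4 SD and 9.38 and 9.5 at 6 SD, against 6.73 to 6.98 early.

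Cell wall probe sets divided evenly, 4 of 22 higher and 4 lower, beside 3.11% and 3.86% of all probe sets. The 10 that the study selected on these arrays gave 3 and 3, and the 12 found by symbol 1 and 1. A glycosyl hydrolase of family 9, a family that holds the plant endoglucanases, had 8.54, 9.33, 10.07 and 10.19 late, against 8.32, 8.15, 8.02 and 8.38 early. The polygalacturonase-inhibiting protein PGIP, known to restrain pectin-degrading enzymes of fungi, had 6.57 and 6.04 at 4 SD and 4.71 and 5.10 at 6 SD, against 7.42, 7.09, 7.28 and 7.68 early (−1.76 ± 0.37, adjusted p = 0.012 with time-point means). A proline-rich extensin-like probe set differed by −1.26 ± 0.21, with 6.78, 6.31, 5.96 and 5.73 late, against 7.29 to 7.6 early. Of 35 aquaporin probe sets 7 were higher and 2 lower, and the 31 found by symbol gave 5 higher and 2 lower. PIP2-8, a plasma membrane water channel, had 5.68 and 6.11 at 4 SD and 8.09 and 7.91 at 6 SD, against 5.32 to 5.63 early, and the step between 4 and 6 SD passed limma (adjusted p = 0.019). It too was above the array median at 6 SD alone and was left out by the filter on dim probe sets. A second PIP2-8 probe set differed by 0.66 and overlapped by 0.07, and its step did not pass (adjusted p = 0.10).

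In flavonoid and isoflavonoid synthesis 8 of 67 probe sets were higher and 3 lower, beside 3.11% and 3.86% of all probe sets. The 63 found by symbol held all 8 of the higher and 2 of the lower. IFS2, an isoflavone synthase and thus at the branch from flavonoids to isoflavonoids, had 8.44 and 8.63 at 4 SD and 9.80 and 9.64 at 6 SD, against 7.41, 7.52, 7.36 and 7.53 early, a difference of 1.67 ± 0.29 (adjusted p = 0.12, adjusted p = 0.0029 with time-point means). A probe set of the near-identical gene IFS1 differed by −1.96 and overlapped by 0.27, so the 2 did not go the same way, and cross-hybridization between them was not tested. IFR2, an isoflavone reductase, was higher by 1.02 ± 0.19. Dihydroflavonol reductase DFR2, on the branch to anthocyanins and tannins, had 6.56 and 6.4 at 4 SD and 5.07 and 4.67 at 6 SD, against 6.83, 7.08, 6.94 and 6.78 early. LAR1, on the tannin branch, had 7.6, 8.02, 7.39 and 6.67 late, against 8.15, 8.22, 8.06 and 8.37 early.

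Of 15 light and clock probe sets 1 was higher and 2 were lower, against 3.11% and 3.86% of all probe sets, and none passed the 2-group fit. LCL3, of the LHY and CCA1 family of clock MYB factors, had 7.89, 8.28, 8.29 and 6.6 late, against 8.39 to 8.57 early and 5.00 and 7.04 at 0 SD. The lowest late array was 6 SD replicate 2, and the 0 SD replicates differed by more than 2 log2 units. CRY2B, a symbol of the cryptochrome blue-light receptors, had 7.27, 7.19, 6.70 and 6.62 late, against 7.38 to 7.65 early.

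Of 43 glutathione transferase probe sets none was higher and 5 were lower, from −0.29 (GSTa) to −1.11, beside 3.11% and 3.86% of all probe sets. The 2 that the study selected on these arrays were both lower, and 3 of the 41 found by symbol were. The largest difference was that of a glutathione S-transferase with 6.15, 6.14, 5.18 and 5.76 late, against 6.78, 7.23, 6.67 and 6.97 early. Heat shock probe sets counted 2 higher and 4 lower of 39, beside 3.11% and 3.86% of all probe sets. A probe set with the symbol HSF-01, a heat shock transcription factor, had 7.86, 7.23, 7.71 and 7.19 late, against 8.89, 9.04, 9.04 and 8.38 early (−1.34 ± 0.20, adjusted p = 0.094, adjusted p = 0.042 with time-point means). A second probe set with this symbol, which the study's annotation names a leucine-rich repeat extensin-like protein, differed by 1.30 the other way and overlapped, so the symbol and the annotation do not match there. Of 46 seed storage, late embryogenesis and dehydrin probe sets 2 were higher, near the 3.11% of all probe sets. Of 16 AP2/ERF probe sets 2 were higher and 1 lower, of 9 ethylene probe sets 1 was higher and of 18 photosynthesis probe sets 1 was higher and 1 lower. None was separated among 3 histone and cell cycle probe sets, 3 hypoxia probe sets and the 1 SPL factor found, SPL9 (−0.53).

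**Figure D3:**
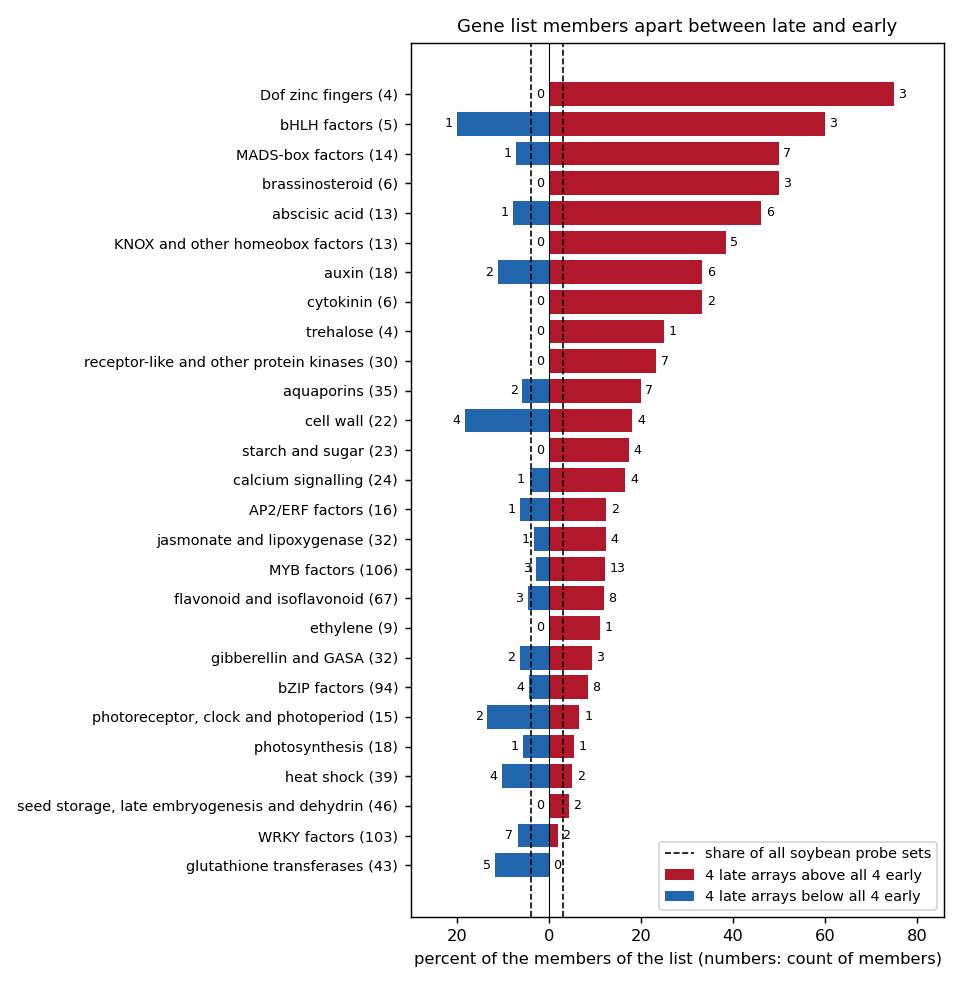
Percent of the members of each gene list (size in parentheses) whose 4 late arrays lay all above (red, to the right) or all below (blue, to the left) the 4 early arrays, with the count at each bar and dashed lines at 3.11% and 3.86%, the shares over all soybean probe sets. Lists with fewer than 4 members or none separated are left out, and the short lists with long red bars hold mainly genes that the study selected on these arrays.

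Of the remaining calls of the 2-group fit, ASP1 rose, with the arrays of each side close together. It had 11.91, 12.21, 12.12 and 11.95 late, against 11.04, 11.21, 11.06 and 11.19 early, a rise of 0.92 ± 0.10 (1.90-fold, adjusted p = 0.033), which passed in 2 of the 8 fits that left out 1 array. A putative cytochrome P450 monooxygenase fell, with 6.71, 6.59, 6.28 and 6.29 late, against 7.5, 7.77, 7.45 and 7.56 early (−1.10 ± 0.13, adjusted p = 0.045), and 8.09 and 8.20 at 0 SD. It too passed in 2 of the 8 fits. Its levels were highest at 0 SD and lowest at 6 SD. Shikimate dehydrogenase, an enzyme of the pathway to the aromatic amino acids, fell by 1.69 ± 0.15 on the log2 scale (3.22-fold, adjusted p = 0.011), with 5.59, 5.90, 5.96 and 6.29 late, against 7.44, 7.63, 7.80 and 7.63 early. Its levels at 0 SD, 5.22 and 5.30, lay below the late ones, so that it was high at 1 and 2 SD only.

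The other 4 called probe sets had no gene name, and 1 of them rose and 3 fell. GmaAffx.56394.1.S1_at had 9.32, 9.97, 9.85 and 9.48 late, against 8.13, 7.84, 8.01 and 7.80 early (1.71 ± 0.16, adjusted p = 0.012). GmaAffx.25060.1.S1_at had 5.06, 4.82, 4.66 and 4.81 late, against 6.46, 6.36, 6.31 and 6.42 early, and its adjusted p of 0.0041 was the lowest of all. Gma.12839.1.A1_at and GmaAffx.9618.1.S1_at fell by 1.89 ± 0.21 and 1.32 ± 0.12, and both had 0 SD levels on the late side. The largest lower difference of any probe set, −3.03 ± 0.44 (adjusted p = 0.076), was that of the unnamed GmaAffx.92834.1.S1_at, with 5.02, 5.48, 4.64 and 6.37 late, against 8.36, 9.40, 8.36 and 7.52 early. The largest higher difference without a gene name was that of GmaAffx.71645.1.S1_at, with 7.85, 9.19, 11.53 and 10.73 late, against 5.94, 5.92, 6.4 and 6.14 early, a difference of 3.73 ± 0.67 (adjusted p = 0.13). It was followed by Gma.16974.1.S1_at, with 3.68 and 5.15 at 4 SD and 8.78 and 7.93 at 6 SD, against 3.41 to 3.61 early. Both lay higher at 6 SD than at 4 SD.

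Within the late side many of the probe sets differed further between 4 and 6 SD. Of the 1170 higher ones both 6 SD arrays lay above both 4 SD arrays in 561 (47.9%, against 20.9% of all probe sets), and of the 1452 lower ones both 6 SD arrays lay below both 4 SD arrays in 42.6% (26.6% of all). At 4 SD the median higher probe set had reached 60.02% of its 6 SD difference and the median lower one 61.2%. These shares are a description, since the choice required both 4 SD arrays to lie beyond all early arrays and so left out probe sets that differed at 6 SD alone. In 218 higher and 280 lower probe sets the 4 SD difference was the larger. Fitted over the time points, 6 SD minus 4 SD gave 89 higher (0.237%) and 9 lower (0.0239%) calls, of which 25 and 6 were separated members, in the same direction. Of the 89, 66 were dim, that is above the median of the array in fewer than 4 of the 8 arrays, and 6 SD replicate 2 had the highest lower quartile of all arrays (5.38, against 5.13 to 5.19 for the other chamber arrays). With the dim probe sets filtered out, 0 higher and 0 lower steps between 4 and 6 SD passed. This filter also drops a probe set that lay above the array median at 6 SD alone, however high it was there. SEPALLATA1, with 8.24 and 8.33 at 6 SD against array medians of 7.44 and 7.31, was dropped in this way. For such probe sets the filtered count cannot tell a dim signal from one that came on at 6 SD. The part of 6 SD replicate 2 in the 6 SD calls was not tested. For 2 SD minus 1 SD limma gave no call in either direction, with 252 higher and 215 lower at an unadjusted p under 0.05.

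The 4 SD replicates differed from each other. In 67.5% of the higher probe sets 4 SD replicate 2 lay above replicate 1, against 50.5% of all probe sets, and the floral MADS-box genes were among them, AGL9 with 8.71 in replicate 2 and 6.03 in replicate 1. At 6 SD, replicate 2 lay above replicate 1 in 52.8% of the higher and 28.9% of the lower probe sets, against 46.0% of all. Without 4 SD replicate 1 the 2-group fit called 150 probe sets higher and 32 lower, and the 11 calls were among them. Without 6 SD replicate 2 it called 27 higher and 16 lower, again with the 11 among them.

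**Figure D4:**
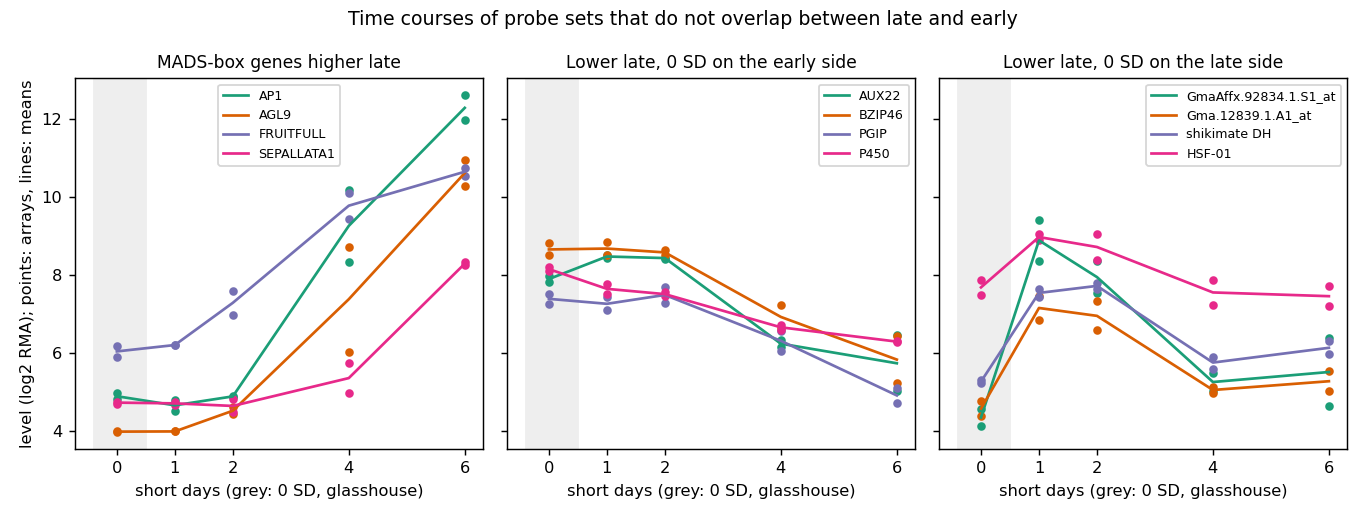
Level of each array (points, log2 RMA) and mean of each time point (lines) against short days for 12 probe sets that do not overlap between late and early, with 0 SD shaded as glasshouse material. The MADS-box genes on the left are low to 2 SD and high at 6 SD, the genes in the middle had 0 SD arrays on the early side, and those on the right are high at 1 and 2 SD only, as shikimate dehydrogenase with 5.22 and 5.30 at 0 SD.

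The 0 SD arrays played no part in the comparison and lay on either side. For 613 higher probe sets (52.4%) both 0 SD arrays were on the early side of the midpoint between the late and early means, for 243 (20.8%) both were on the late side, and for 314 they were split. Of the lower probe sets 696 (47.9%) had both on the early side, 272 (18.7%) both on the late side and 484 were split. Over all probe sets, which were not chosen for a difference, the shares were 39.7%, 21.7% and 38.6%. Floral MADS-box genes, AUX22, BZIP46 and PGIP had 0 SD levels on the early side, whereas shikimate dehydrogenase, HSF-01, SVP (6.75 and 6.83) and the unnamed GmaAffx.92834.1.S1_at (4.12 and 4.57) had 0 SD levels on the late side.

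**Figure D5:**
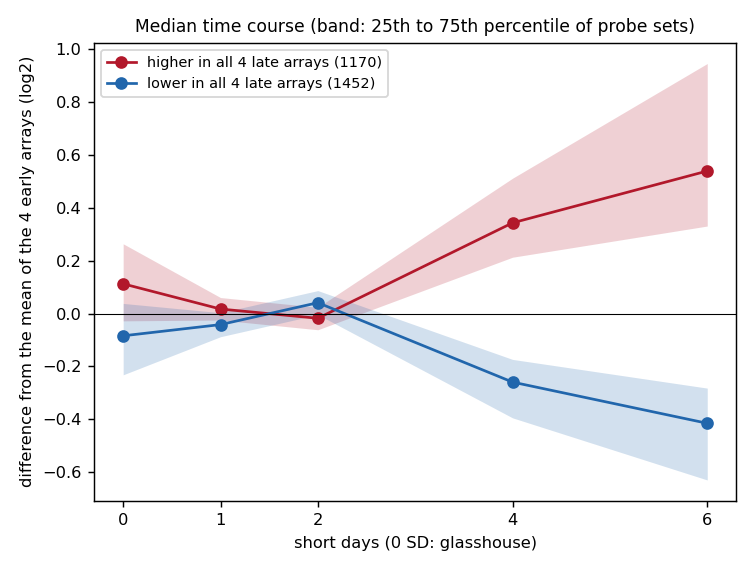
Median difference from the mean of the 4 early arrays (log2, vertical axis) against short days for the 1170 higher (red) and 1452 lower (blue) probe sets, with bands between the quartiles. The medians at 4 and 6 SD are 0.34 and 0.54 for the higher and −0.26 and −0.42 for the lower probe sets, as the choice of these probe sets requires, and at 0 SD, which was not used in the choice, they are 0.11 and −0.08.

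At the edge of the comparison the sides all but touched. The least separated higher probe set was Gma.6226.1.S1_at, with 11.51, 11.55, 11.44 and 11.41 late, against 11.41, 11.39, 11.26 and 11.07 early, and the nearest one left out was BZIP114, with a difference of 0.07. On the lower side the least separated was GmaAffx.51116.1.S1_at, with 10.00, 9.96, 9.89 and 9.85 late, against 10.00, 10.11, 10.04 and 10.11 early, and the nearest one left out was Gma.2410.1.S1_at, with a difference of −0.38. A gene name was found for 185 of the higher and 115 of the lower probe sets, so that most are known here only by their probe set. Among the 331 probe sets that the study selected on these arrays, 133 were higher, 61 lower and 137 overlapped.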

How the data were processed

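Log2 values were deposited, which the authors had obtained from the scans by RMA in AffylmGUI (background correction, quantile normalization and 1 summary a probe set). Of 37746 entries, 105 Affymetrix controls and 48 rRNA entries were left out, and 37593 soybean probe sets were compared without a filter. Late and early arrays were set against each other by overlap and with limma 3.58.1 in R 4.3.3, as 2 groups of 4 (6 residual degrees of freedom) or with a mean for each time point (4). Adjustment followed Benjamini and Hochberg over all probe sets, at a threshold of 0.05. Precision is limited by how few arrays there were, and p-values measure only the spread between these samples. The members, gene lists and alternatives were chosen with earlier results of these data known. Lists were found by words in gene symbols (8677 probe sets with 1 symbol, 370 with several, 28546 with none; 1676 other than locus numbers) or in the study's annotation of 331 probe sets, and wrong matches by symbol were taken out of 3 lists after values had been seen. Named genes are those given by probe set in the paper, the calls with a gene name, up to 4 separated members and the extreme overlapping members of each list, those at the edge of the comparison, and the largest unnamed ones. The 4 unnamed calls were added after their values were seen. On simulated arrays with independent noise, a log2 change of 1 was called by the 2-group fit for 50 of 67 probe sets, and of 2 for 64 of 67. The noise was that within time points, and the change was equal in all 4 late arrays. Distances between time points, part of the spread in the real 2-group fit, were absent, so these shares do not give its sensitivity. Alternatives were a filter on dim probe sets, other normalizations, an intensity trend, time-point means, blocks, array weights and leaving out arrays or time points.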

Additional observations from a re-analysis of the deposited data

Results flagged for a closer look

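Results were listed here where 1 of the 4 arrays of a side lay far from the other 3 by Dixon's criterion. Chance gives this with a probability of about 0.05 a group, and 11 of 244 groups of named probe sets were listed. The median (7.307) and the interquartile range (3.604) of 6 SD replicate 2 were low among the late arrays, the others having medians of 7.436 to 7.462 and interquartile ranges of 3.951 to 4.016. In the early arrays, 2 SD replicate 2 had the lowest mean correlation with the late arrays, 0.9789, against 0.9838 to 0.9847. Among the late arrays, 6 SD replicate 2 was apart for EIN4 (7.52, others 7.06 to 7.10) and WRKY29 (5.12, others 6.24 to 6.42), 4 SD replicate 1 for RCA11 (7.86, others 7.95 to 7.97) and GSTZ3 (7.08, others 7.41 to 7.48), and 4 SD replicate 2 for WRKY56 (6.29, others 7.85 to 8.08). Among the early arrays, 2 SD replicate 2 was apart for GSTZ3 (8.23, others 7.48 to 7.55) and a serine/threonine protein kinase (8.64, others 8.12 to 8.16). Replicate 1 of 1 SD was apart for a phototropic-responsive protein (7.0, others 6.79 to 6.80) and a leucine-rich repeat kinase (10.95, others 10.82 to 10.83). Replicate 1 of 2 SD was apart for CIPK6 (10.60, others 10.45 to 10.48) and replicate 2 of 1 SD for the unnamed GmaAffx.9618.1.S1_at (5.87, others 5.42 to 5.49).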

How the results depend on the processing

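The counts of the 2-group fit, 5 higher and 6 lower, rested on few arrays and on what was taken as spread. They were 226 and 105 with time-point means over 8 arrays, 357 and 171 over 10 arrays, and 318 and 201 with array weights (0.168 for 6 SD replicate 2 and 3.15 for 1 SD replicate 1), and 12 were higher with an intensity trend. Each of these kept the 11 calls. A filter on dim probe sets (18948 kept) left 7 of the 11 to be tested, kept all 7 and gave 2 lower calls. Leaving out 1 array in turn gave 0 to 150 higher and 1 to 32 lower calls. GmaAffx.25060.1.S1_at passed in all 8 of these fits, FRUITFULL in 3, the CAULIFLOWER-like probe set in 5, AUX22 in 3, and ASP1, the P450 and the lipase in 2 each (adjusted p up to 0.221). Of the 11 calls, 5 were kept without 1 SD replicate 1, 2 when 1 SD replicate 2 was left out, 1 for 2 SD replicate 1, 7 for 2 SD replicate 2, 1 for 4 SD replicate 2 and 3 for 6 SD replicate 1. Leaving out a time point gave 0 and 0 calls without 1 SD or 2 SD, 892 and 324 without 4 SD, and 21 and 28 without 6 SD, with fewer arrays in each. Replicate numbers were not used as pairs in the main fit. Deviations of the same number correlated at −0.30 to 0.35 between time points. Those of 1 SD correlated negatively with the others, and those of 2, 4 and 6 SD at 0.17 to 0.35 with each other. Whether a replicate number marks a shared collection was not tested. With the replicate block 2 probe sets were higher and 3 lower, and with the time point as a random block (correlation 0.0885) 3 and 3. Of the separated probe sets, 634 of 1170 higher ones passed the filter. Leaving out 1 array gave 1411 to 2422 higher and 1852 to 2773 lower, and leaving out a time point gave 2580 and 3918 (1 SD), 2260 and 2906 (2 SD), 5277 and 5955 (4 SD) and 3496 and 3648 (6 SD), as fewer arrays are more easily apart. For 6 SD minus 4 SD, the 89 higher and 9 lower calls became 0 and 0 with the filter, 59 and 3 with quantile normalization, and 147 higher with a common median. The filter drops every probe set that lay above the array median at 6 SD alone. For 4 SD minus early, the 2 lower calls became 1 with quantile normalization and 0 with a common median. With 0 SD arrays required to lie beyond all arrays of the other side, 547 higher probe sets were on the early and 340 on the late side, and 705 and 355 of the lower. A common median moved the median difference by 0.02. The small difference of a leucine-rich repeat kinase, 0.21, ranged over −0.10 to 0.53 when 1 array was left out (−0.10 without 6 SD replicate 2, −0.089 when it was 6 SD replicate 1) and was −0.29 with array weights and −0.70 with no 6 SD array. That of ILL6, −0.04, ranged over −0.18 to 0.14 (0.14 with 4 SD replicate 2 left out, 0.044 with 4 SD replicate 1, 0.025 with 2 SD replicate 1, 0.011 with 1 SD replicate 2) and was 0.077 with no 2 SD array and 0.36 with no 4 SD array. These settings were run for 122 named probe sets, and no other of them turned round. The causes were not tested. NAC12, an overlapping list member, was not among the 122. Its difference was 1.17, whereas 4 SD minus early, with no 6 SD array, was −0.47, so it turned round there. Whether other overlapping members outside the 122 turned round was not tested. Apart from the fits over time-point means, these values rest on 4 against 4 arrays at most, and no array of long-day plants in the chamber was analysed here.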

Other observations

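The following probe sets were chosen after their values were seen. They are single probe sets and stand for no group. SODB, an iron superoxide dismutase, averaged 5.74 at 4 SD and 5.43 at 6 SD, against 7.06 at 1 SD and 6.43 at 2 SD. A second SODB probe set, at a low level, differed by −0.12 and overlapped. SODB2 averaged 4.83 and 4.88, against 6.12 and 5.58. The differences were −1.16 and −1.0 (adjusted p = 0.17 and 0.15 in the 2-group fit), and the levels at 0 SD averaged 7.19 for SODB and 5.96 for SODB2, so these stood near those of 1 SD. A ferritin symbol, SFERH-2, averaged 9.96 at 4 SD and 8.67 at 6 SD, against 10.83 at 1 SD and 10.56 at 2 SD, and 9.74 at 0 SD. All its late arrays lay below its early arrays, and the 0 SD mean stood between the early and the 6 SD means. The other 3 probe sets of SFERH-2 were also lower, with differences of −0.59 to −1.13, whereas the 3 of SFERH-3 overlapped. SACPD-C, a stearoyl-ACP desaturase of fatty acid synthesis, averaged 9.52 at 0 SD, 6.75 and 6.89 at 1 and 2 SD, 6.25 at 4 SD and 5.20 at 6 SD, so that its late-early difference of −1.10 followed a larger one between 0 and 1 SD.

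Probe sets with both 0 SD arrays beyond the late mean, on the far side from the early arrays, numbered 69 of the 1170 higher (5.90%) and 93 of the 1452 lower ones (6.4%), against 14.1% of all probe sets. These shares are not alike, since members were chosen for sides that lie apart. Over all probe sets the late mean often lies close to the early one and is more easily passed. Shikimate dehydrogenase and the unnamed GmaAffx.92834.1.S1_at were of this kind.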
